A study of Arabidopsis thaliana with 32 samples.

Results

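The light response of Arabidopsis thaliana seedlings that carry the activator fusion HY5-VP16 was set against that of seedlings without functional HY5, gene by gene. For each gene the quantity is a difference of differences on the log2(CPM + 1) scale: VP16 at 1.5 h of light minus VP16 in the dark, less the same change in hy5. CPM is the authors' library-scaled read count per gene, in columns that do not share a common total. The samples are set by their labels, 12 of the 32 libraries of the series, and all 19685 genes of the deposited table were measured in them. The comparison itself was chosen with earlier results of these data known. VP16 is the line 35S:FLASH-HY5-VP16 in the hy5 mutant, with 3 libraries at 1.5 h of light and 3 in the dark. The comparison line hy5 is the same mutant with no transgene, also with 3 libraries in each state, and neither its allele nor the number of independent VP16 lines is given in the sources used here. The last part of the results also uses OX, the line 35S:FLASH-HY5 in the hy5 mutant, and Col, the Columbia wild type. Each has 3 libraries at 1.5 h of light and 3 in the dark. All seedlings were of the Columbia ecotype, received 1 h of white light to start germination, and grew for 3 days in darkness at 21 °C. The light samples then stood for 1.5 h under 100 µmol m−2 s−1 of white light mixed from blue, red and far-red diodes, and the dark samples were collected under a green safe light. Each sample held about 40 whole seedlings, from which polyadenylated RNA was sequenced with strand information. Nothing in the labels says that replicates came from separate cultures, so every p-value here reflects how far libraries scatter within groups, which may be technical. In the main fit that scatter was estimated over all 32 libraries of the series.

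HY5 is a bZIP transcription factor that promotes photomorphogenesis, the change from the pale, elongated form of a dark-grown seedling to a green, short one. It binds DNA elements with an ACGT core such as the G-box, and in darkness the protein is marked for degradation by the COP1 ubiquitin ligase complex. VP16 is the activation domain of a herpesvirus protein, widely used to turn a DNA-binding protein into a strong activator, and 35S is a viral promoter that is active in most plant cells regardless of light. Known HY5 targets include genes of flavonoid synthesis, of protection against excess light and of chlorophyll and light-harvesting proteins.

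The promoters of 6 genes on which the results turn are shown here, as the 250 bases before the annotated gene start in the TAIR10.1 RefSeq assembly, read 5′ to 3′ on the strand of the gene. Capitals mark matches on either strand to 1 motif per gene. In MYB12, CHS, ELIP1 and CAO the motif is the G-box CACGTG, a palindrome around the ACGT core. In PSAK the GATA element GATAAG was searched, and it appears there as its complement. In HSP17.4 it is the heat shock element GAANNTTCNNGAA. MYB12, CHS and ELIP1 had a larger light response in VP16 than in hy5, CAO and PSAK a smaller one, and HSP17.4 stands for the heat shock genes. CHS, PSAK and HSP17.4 were chosen after their values were seen, among genes whose window holds a match and meets no other gene.
MYB12, chr2:19476076-19476325, plus strand, match from position -118: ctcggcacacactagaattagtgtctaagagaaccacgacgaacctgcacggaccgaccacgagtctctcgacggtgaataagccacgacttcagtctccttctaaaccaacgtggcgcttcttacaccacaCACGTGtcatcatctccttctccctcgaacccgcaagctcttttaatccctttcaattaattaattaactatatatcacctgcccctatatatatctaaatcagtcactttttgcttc
CHS, chr5:4488226-4488475, plus strand, match from position -233: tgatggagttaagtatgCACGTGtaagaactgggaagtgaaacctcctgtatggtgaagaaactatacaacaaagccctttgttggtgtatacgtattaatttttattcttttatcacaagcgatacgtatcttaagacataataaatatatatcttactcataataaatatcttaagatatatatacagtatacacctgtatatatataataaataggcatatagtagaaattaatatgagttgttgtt
ELIP1, chr3:8085670-8085919, minus strand, match from position -66: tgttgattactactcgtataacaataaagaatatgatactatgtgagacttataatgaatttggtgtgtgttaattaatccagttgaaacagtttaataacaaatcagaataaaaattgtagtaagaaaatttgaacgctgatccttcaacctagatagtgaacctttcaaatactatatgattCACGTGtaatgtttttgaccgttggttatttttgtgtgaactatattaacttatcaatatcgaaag
CAO, chr1:16851272-16851521, minus strand, matches from positions -52 and -32: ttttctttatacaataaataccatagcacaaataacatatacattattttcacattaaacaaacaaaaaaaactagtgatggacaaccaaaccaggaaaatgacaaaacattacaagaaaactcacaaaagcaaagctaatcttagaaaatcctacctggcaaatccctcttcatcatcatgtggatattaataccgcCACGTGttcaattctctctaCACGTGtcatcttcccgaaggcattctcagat
PSAK, chr1:10721933-10722182, plus strand, match from position -67: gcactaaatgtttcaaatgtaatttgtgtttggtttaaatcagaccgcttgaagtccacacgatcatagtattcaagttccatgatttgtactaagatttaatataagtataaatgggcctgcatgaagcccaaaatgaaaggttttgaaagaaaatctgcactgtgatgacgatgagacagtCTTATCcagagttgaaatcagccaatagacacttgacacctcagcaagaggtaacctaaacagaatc
HSP17.4, chr3:16984868-16985117, minus strand, matches from positions -99 and -18: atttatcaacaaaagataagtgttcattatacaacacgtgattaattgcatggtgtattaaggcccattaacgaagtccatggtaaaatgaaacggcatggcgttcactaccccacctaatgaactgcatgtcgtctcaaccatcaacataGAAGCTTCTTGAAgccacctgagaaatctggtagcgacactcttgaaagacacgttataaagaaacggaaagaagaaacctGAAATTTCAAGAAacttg

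Position -1 is the base before the annotated start. Windows of this length were read for 19581 genes, of which 7.56% hold CACGTG, 12.5% GATAAG and 0.424% GAANNTTCNNGAA. CACGTG was found before 98 of 983 genes with a larger light response in VP16 (9.97%) and 60 of 681 with a smaller one (8.81%). By list, it was found before 6 of 26 flavonoid genes (23.1%), 4 of 13 photoprotection genes (30.8%) and 7 of 43 genes of the photosynthesis apparatus (16.3%). GATAAG was found before 12 of those 43 (27.9%), and the heat shock element before 3 of 11 heat shock genes (27.3%). These are letter matches in a short window and say nothing of binding.

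The HY5 transcript was measured first, since it checks the labels. HY5 had 2178.5, 2189.3 and 2423.1 CPM in VP16 at 1.5 h and 1945.6, 2619.3 and 2449.4 CPM in VP16 in the dark. The hy5 libraries had 25.2, 25.1 and 25.1 CPM at 1.5 h and 21.4, 19.4 and 24.4 CPM in the dark. Every VP16 library thus lay far above every hy5 library. The counts cannot separate transgene from endogenous transcripts. The light response of HY5 was not called in either genotype, and the interaction was -0.24 ± 0.18 (log2, SE, limma adjusted p = 0.5).

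HYH, the closest homolog of HY5 and itself a light-induced bZIP factor, had 82.3, 73.5 and 79.9 CPM in VP16 at 1.5 h against 9.3, 7.39 and 9.11 CPM in VP16 in the dark. For hy5 the values were 17.7, 16.1 and 15.2 CPM at 1.5 h against 0.154, 0.727 and 0.166 CPM in the dark. The level was higher in VP16 in both states, and light raised it in both genotypes. Counted in CPM with no log, the rise was larger in VP16 (70.0) than in hy5 (16.0), opposite to the log2 direction given next. Dark replicates 1 and 3 of hy5 lay below the level of 3 reads (0.23 and 0.249 CPM), so the fold change in hy5 is uncertain. The interaction of -0.65 ± 0.21 missed the threshold (limma adjusted p = 0.056). It passed as lower with edgeR on the recovered reads (-2.38, adjusted p = 0.00023), with DESeq2 (-2.43, adjusted p = 8.2e-06), at a pseudocount of 0.25 CPM (-1.76, limma adjusted p = 0.00069), with a replicate block (limma adjusted p = 0.046), and without dark replicate 2 of hy5 (limma adjusted p = 0.0074) or of VP16 (0.037).

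Depth ran between 9934059 and 19851702 reads per library over the 12 libraries, with a median of 14142762. The dark libraries had 9934059 to 12659099 reads and the light libraries 15626426 to 19851702. Taken as the floor of detection, 3 reads correspond to 0.148 to 0.3 CPM. This floor was higher in the dark (0.23 to 0.3 CPM) than in the light (0.148 to 0.197 CPM). The floor covers counting error only. Chloroplast-encoded genes took 0.611 to 0.764% of reads in VP16 at 1.5 h, 0.553 to 0.605% in VP16 in the dark, 0.29 to 0.451% in hy5 at 1.5 h and 0.308 to 0.529% in hy5 in the dark. Root marker genes summed to 285 to 329 CPM in VP16 at 1.5 h, 219 to 284 CPM in VP16 in the dark, 319 to 343 CPM in hy5 at 1.5 h and 301 to 317 CPM in hy5 in the dark. Between the genotypes in the dark 6 of 12 of them were higher in VP16 and 1 lower, where 11.1% of the genes in the table were higher and 11.1% lower. At 1.5 h 7 were higher and 1 lower, against 13.1% and 11.8% of the table. In the interaction 1 of the 12 passed as higher, RHD6 (1.00 ± 0.30, limma adjusted p = 0.035), where 5.0% of the table was higher. No seed storage gene of 8 passed (limma, adjusted p below 0.05). In RNA from whole seedlings, fewer cells of a type and less RNA per cell cannot be told apart.

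Of the 19685 genes, 1668 (8.47%) had a light response in VP16 that differed from that in hy5 (limma, adjusted p below 0.05 after Benjamini-Hochberg, no fold limit). The response was higher in VP16 for 984 genes (5.0%) and lower for 684 (3.47%), and the difference reached at least 1 on the log2 scale for 463 and 148 of them. Over all genes the median difference was -0.004. Leaving out each of the 12 libraries in turn gave 820 to 960 higher and 516 to 700 lower calls, and 671 and 390 genes passed in every one of these fits. The authors' deposited table of fold changes against hy5 gave the same sign for 1662 of the 1668 genes (99.6%). Those fold changes describe the same samples, so the match in sign is not independent evidence.

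Among the 984 genes with a higher response, the commonest course was a rise in VP16 with no called change in hy5, in 473 genes (48.1%). Another 328 (33.3%) rose in both genotypes and rose more in VP16, 92 fell in hy5 alone and 42 rose in VP16 and fell in hy5. Light changed 8772 genes of the table in VP16 (44.6%) and 6308 in hy5 (32%), of which 4417 (22.4%) rose in VP16 and 3219 (16.4%) in hy5. Seen by light state, 496 of the 984 (50.4%) were not called between the genotypes in the dark and were higher in VP16 at 1.5 h. For 199 (20.2%) the VP16 level was below hy5 in the dark and not called at 1.5 h. Over all 984 genes the median light response was 1.14 in VP16 and 0.11 in hy5.

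Among the 684 genes with a lower response, 279 (40.8%) fell in VP16 with no called change in hy5, 185 (27.0%) fell in both genotypes, 97 rose in both and 79 rose in hy5 alone. With light, 4355 genes of the table (22.1%) fell in VP16 and 3089 (15.7%) in hy5. By light state, 324 (47.4%) were not called in the dark and were lower in VP16 at 1.5 h. For 152 (22.2%) the VP16 level was above hy5 in the dark and not called at 1.5 h. The median light response over all 684 genes was -0.71 in VP16 and -0.01 in hy5.

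**Figure D1:**
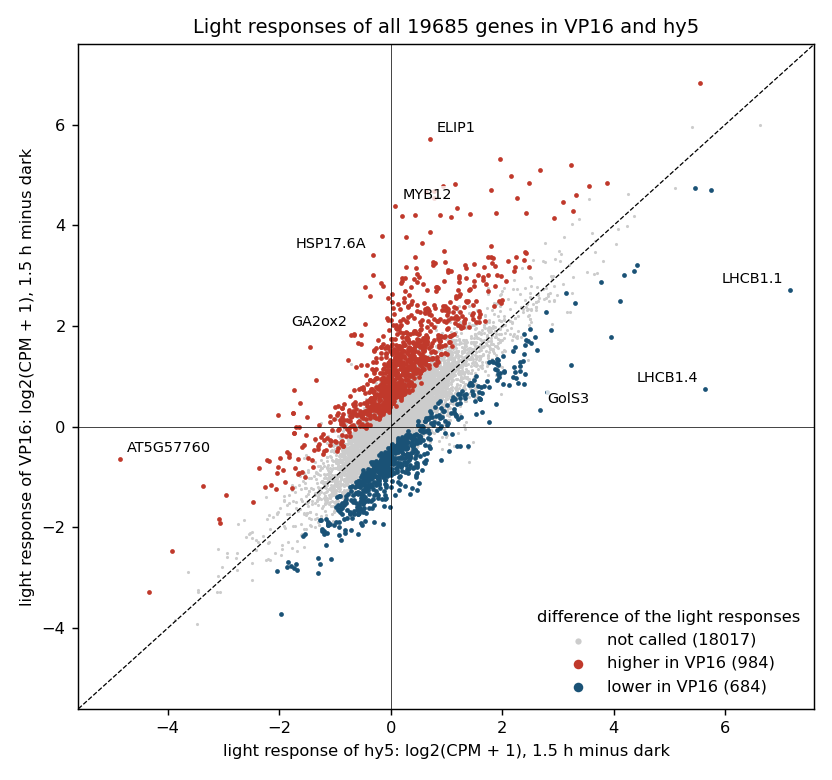
Light response of every gene in VP16 (vertical axis) against hy5 (horizontal axis), both as the log2(CPM + 1) mean at 1.5 h minus the mean in the dark; the dashed line marks equal responses. The 984 genes called higher in VP16 lie above the line and the 684 called lower lie below it, among 19685 genes.

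Genes of the flavonoid pathway, which makes flavonols and anthocyanins that screen ultraviolet and visible light, responded more in VP16 in 23 of 26 measured members and less in none. The median interaction of the list was 2.07, against -0.004 over all genes, and 23 members passed in every fit without 1 library. This list and those below were chosen with earlier results of these data known, so their shares are description only. All 23 rose with light in VP16, and in hy5 11 of them rose, 1 fell and 11 were not called. MYBL2 (-0.37), TTG1 (-0.05) and EGL3 (0.17), which regulate the pathway rather than catalyse a step of it, did not pass.

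MYB12, a MYB factor that activates flavonol genes and whose promoter is shown above, had the highest value of this list. Its levels were 61.0, 52.0 and 69.3 CPM in VP16 at 1.5 h and 2.2, 1.76 and 1.9 CPM in VP16 in the dark. Its levels in hy5 were 0.254, 0.339 and 0.247 CPM at 1.5 h and 0.23, 0.0909 and 0.332 CPM in the dark. All hy5 values lay near the floor, every VP16 library lay above them, and the VP16 groups in light and dark did not overlap. The interaction was 4.3 ± 0.24 (limma adjusted p = 1e-13).

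CHS, chalcone synthase, catalyses the entry step of the pathway. It had 581, 407 and 634 CPM in VP16 at 1.5 h against 22.9, 22.7 and 39.5 CPM in VP16 in the dark, a 19.1-fold change of the means. The values in hy5 were 10.9, 11.7 and 5.73 CPM at 1.5 h against 2.99, 2.91 and 2.4 CPM in the dark, a 3.41-fold change. CHS thus rose in both genotypes, VP16 stood above hy5 already in the dark, and the interaction was 2.81 ± 0.34 (limma adjusted p = 6.2e-07).

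UGT78D2, which glucosylates flavonols and anthocyanins, had 289, 254 and 275 CPM in VP16 at 1.5 h against 4.8, 5.72 and 7.12 CPM in VP16 in the dark. In hy5 it had 15.9, 19.9 and 21.6 CPM at 1.5 h against 4.07, 4.27 and 3.98 CPM in the dark. The dark difference between the genotypes did not pass, and the interaction was 3.36 ± 0.22 (limma adjusted p = 7.1e-12). PAL1, phenylalanine ammonia-lyase at the head of phenylpropanoid synthesis, changed 3.68-fold in VP16 and 1.37-fold in hy5, with an interaction of 1.41 ± 0.12 (limma adjusted p = 1.2e-09). UGT89C1, a flavonol rhamnosyltransferase, changed 31.5-fold in VP16 and 5.91-fold in hy5. The coumarate ligase 4CL3 changed 53.9-fold in VP16 and 4.48-fold in hy5, where its dark level was 0.583 ± 0.219 CPM (SD, n = 3).

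F3H, flavanone 3-hydroxylase, had 860, 646 and 895 CPM in VP16 at 1.5 h against 28.7, 32.7 and 38.4 CPM in VP16 in the dark. In hy5 its level was 8.45, 8.92 and 6.23 CPM at 1.5 h against 0.768, 1.09 and 0.663 CPM in the dark. Its interaction was 2.28 ± 0.27 (limma adjusted p = 7e-07), but 1.37 with an adjusted p of 0.055 by edgeR. Summed over the list, flavonoid genes held 2999.5 to 4141.3 CPM in VP16 at 1.5 h and 406 to 449 CPM in VP16 in the dark. In hy5 they held 599 to 671 CPM at 1.5 h and 351 to 386 CPM in the dark.

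Photoprotection and DNA photorepair genes responded more in VP16 in 8 of 13 members and less in none, against 5.0% and 3.47% of the table. Their median interaction was 1.21. OHP1, OHP2, LIL3, VDE and UVR3 did not pass. ELIP1, an early light-induced protein of the thylakoid membrane, had the highest interaction of the named genes. Its levels were 945, 613 and 916 CPM in VP16 at 1.5 h and 18.6, 12.6 and 13.1 CPM in VP16 in the dark. The hy5 libraries had 5.59, 6.95 and 6.13 CPM at 1.5 h and 2.84, 3.36 and 4.14 CPM in the dark. The change was 55.9-fold in VP16 and 1.8-fold in hy5, and no library of VP16 at 1.5 h came near the other groups. The interaction was 5.0 ± 0.49 (limma adjusted p = 1.9e-08).

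MSRB6, a methionine sulfoxide reductase that repairs oxidised proteins, changed 31.6-fold in VP16 and 2.1-fold in hy5 (interaction 4.03 ± 0.50, limma adjusted p = 1e-06). ELIP2, a relative of ELIP1, changed 27.6-fold in VP16 and 3.68-fold in hy5 (interaction 2.91 ± 0.34, limma adjusted p = 3.8e-07). CRY3, a cryptochrome of the DASH type that repairs ultraviolet damage in single-stranded DNA, changed 8.17-fold in VP16 and 2.49-fold in hy5. All 3 ABCI subunits, cytosolic ATP-binding proteins ABCI19, ABCI20 and ABCI21, responded more in VP16, against 5.0% of the table. ABCI20 had 632, 549 and 708 CPM in VP16 at 1.5 h against 56.9, 52.2 and 56.6 CPM in VP16 in the dark. For hy5 the values were 25.2, 25 and 24.5 CPM at 1.5 h against 12.3, 12.1 and 12.7 CPM in the dark. The 4 groups did not overlap, the change was 11.4-fold in VP16 and 2.02-fold in hy5, and the interaction was 2.53 ± 0.12 (limma adjusted p = 9.4e-15).

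**Figure D2:**
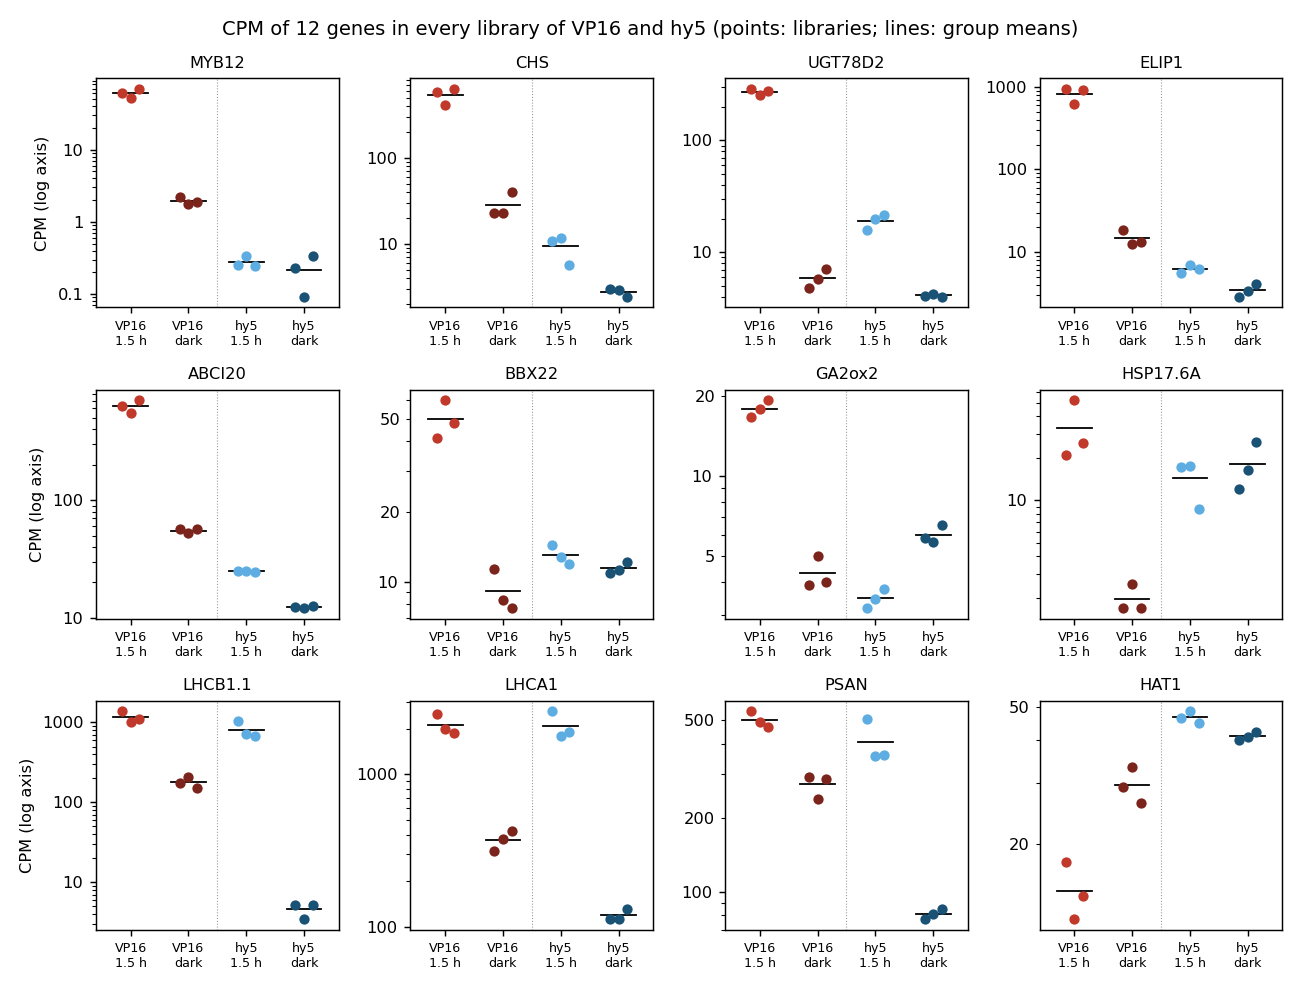
CPM of 12 genes in each library (log axis), with VP16 at 1.5 h and in the dark on the left of each panel and hy5 at 1.5 h and in the dark on the right; points are libraries and lines are group means of 3. MYB12, CHS, UGT78D2, ELIP1 and ABCI20 are highest in the VP16 light libraries, LHCB1.1, LHCA1 and PSAN are lowest in hy5 in the dark, and HAT1 is lowest in VP16 at 1.5 h.

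Of 32 regulators of light signalling, 4 responded more in VP16 and 3 less, against 5.0% and 3.47% of the table. RUP1, a WD40 protein that returns the UVR8 photoreceptor to its inactive dimer, had 174, 160 and 161 CPM in VP16 at 1.5 h against 21.0, 22.1 and 23.0 CPM in VP16 in the dark. Its levels in hy5 were 13.2, 11.6 and 11.8 CPM at 1.5 h against 11.2, 10 and 10.4 CPM in the dark. The light response was thus 7.48-fold in VP16 and 1.16-fold in hy5 (interaction 2.65 ± 0.25, limma adjusted p = 6.9e-09).

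RUP2 changed 24.0-fold in VP16 and 10.5-fold in hy5 (interaction 1.37 ± 0.31, limma adjusted p = 0.0029). PHYB, the main red-light receptor of light-grown plants, changed 1.87-fold in VP16 and 1.14-fold in hy5 (interaction 0.71 ± 0.12, limma adjusted p = 0.00013). PIF4, a bHLH factor that drives elongation, ran the other way. It had 54.8, 56.2 and 45.8 CPM in VP16 at 1.5 h against 50.0, 51.4 and 47.8 CPM in VP16 in the dark. The values in hy5 were 74.4, 73.3 and 59.5 CPM at 1.5 h against 34.1, 40.1 and 39.7 CPM in the dark. PIF4 rose in hy5 and was not called in VP16, with an interaction of -0.78 ± 0.16 (limma adjusted p = 0.00094).

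Of 16 B-box proteins, zinc-finger partners and regulators of HY5, 2 responded more in VP16 and 2 less, against 5.0% and 3.47% of the table. BBX22, which promotes photomorphogenesis, had 41.3, 60.3 and 48.1 CPM in VP16 at 1.5 h against 11.3, 8.36 and 7.69 CPM in VP16 in the dark. In hy5 it had 14.4, 12.8 and 11.9 CPM at 1.5 h against 10.9, 11.2 and 12.1 CPM in the dark. The VP16 light libraries stood apart and the other groups lay close together, with an interaction of 2.16 ± 0.19 (limma adjusted p = 2e-09). BBX24 also responded more (0.54 ± 0.14, limma adjusted p = 0.0087). BBX25 rose in both genotypes, 33.7-fold in VP16 and 67.3-fold in hy5, with an interaction of -0.72 ± 0.18 (limma adjusted p = 0.0073). BBX19 had -0.55 ± 0.15 (limma adjusted p = 0.015), and lost its call without dark replicate 1 of VP16 (0.05) or light replicate 3 of hy5 (0.053).

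Of 23 gibberellin and brassinosteroid genes, 6 responded more in VP16 and 4 less, against 5.0% and 3.47% of the table. GA2ox2, which inactivates gibberellins, was called in opposite directions. It had 16.7, 18 and 19.4 CPM in VP16 at 1.5 h against 3.9, 5.01 and 3.99 CPM in VP16 in the dark. In hy5 its level was 3.18, 3.44 and 3.76 CPM at 1.5 h against 5.84, 5.64 and 6.55 CPM in the dark. All VP16 libraries were higher in light and all hy5 libraries were lower, and the interaction was 2.50 ± 0.24 (limma adjusted p = 8e-09). GA2ox1, an enzyme of the same kind, had an interaction of 2.93 ± 0.27 (limma adjusted p = 5.5e-09), and the gibberellin receptor GID1B 0.95 ± 0.15 (3.1e-05). GA3ox2, which makes active gibberellins, passed with limma (2.06 ± 0.29, adjusted p = 7.6e-06). Its hy5 dark libraries had 0, 0 and 0.0829 CPM, and it did not pass with edgeR (adjusted p = 0.83) or DESeq2 (0.73).

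Genes of the photosynthesis apparatus went the opposite way: 25 of 43 responded less in VP16 and none more, against 3.47% and 5.0% of the table. Their median interaction was -0.78. All 25 rose with light in hy5, and 20 of them rose in VP16. All 25 were also higher in VP16 than in hy5 in the dark, where 2180 genes (11.1%) of the table were higher. The dark difference is a term of the interaction, so the selection of the 25 favoured this. Of all 684 genes called lower, 229 were higher in VP16 in the dark, and of all 43 listed genes 37 were. At 1.5 h 11 of the 25 were still higher in VP16, against 2581 genes (13.1%) of the table, and 14 were not called. The rise counted in CPM, with no log, was smaller in VP16 for 21 of the 25 and larger for 4. The summed level of the 43 genes was 63748.6 to 76931.5 CPM in VP16 at 1.5 h and 34707.0 to 48294.4 CPM in VP16 in the dark. In hy5 it was 48069.0 to 60790.3 CPM at 1.5 h and 20444.8 to 23730.3 CPM in the dark.

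LHCB1.1 encodes a chlorophyll-binding protein of the main antenna of photosystem II. It had 1386.9, 1010.9 and 1107.8 CPM in VP16 at 1.5 h against 175, 205 and 153 CPM in VP16 in the dark. The hy5 libraries had 1044.7, 719 and 675 CPM at 1.5 h against 5.14, 3.45 and 5.22 CPM in the dark. The light groups overlapped and the dark groups lay far apart, so that the change was 6.58-fold in VP16 and 176-fold in hy5 (interaction -4.46 ± 0.38, limma adjusted p = 1.2e-09). LHCB1.4 (-4.89 ± 0.61, limma adjusted p = 1.2e-06) and LHCB1.2 (-2.16 ± 0.44, 0.001) were likewise higher in VP16 in the dark. Counted in CPM with no log, the rise with light was larger in VP16 than in hy5 for LHCB1.1 (991 against 808), LHCB1.2 (626 against 501) and LHCB1.4 (166 against 126), so that their direction differed between the scales. These genes are near-identical copies, and how the authors' counting divided reads between them makes their separate values uncertain.

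PSAN, a lumenal subunit of photosystem I, had 542, 489 and 467 CPM in VP16 at 1.5 h against 293, 237 and 288 CPM in VP16 in the dark. For hy5 the values were 503, 355 and 359 CPM at 1.5 h against 77.1, 81.0 and 85.1 CPM in the dark. As with LHCB1.1, the genotypes overlapped in light and differed in the dark (interaction -1.41 ± 0.21, limma adjusted p = 1.8e-05). PSBO2, of the oxygen-evolving complex of photosystem II, changed 1.99-fold in VP16 and 4.66-fold in hy5 (-1.20 ± 0.20, limma adjusted p = 7.2e-05). LHCA1, an antenna protein of photosystem I drawn above, and PSAK were chosen after their values were seen. LHCA1 had an interaction of -1.61 ± 0.28 (limma adjusted p = 0.00015) and PSAK, another subunit of photosystem I, -1.28 ± 0.23 (0.00033).

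Of 22 chlorophyll synthesis genes, 4 responded less in VP16, against 3.47% of the table, and none more. The list's median interaction was -0.09. CAO, which converts chlorophyll a to chlorophyll b, had 356, 355 and 314 CPM in VP16 at 1.5 h against 126, 110 and 119 CPM in VP16 in the dark. Its levels in hy5 were 344, 316 and 319 CPM at 1.5 h against 51.1, 53.4 and 51.4 CPM in the dark. The light levels of the genotypes overlapped, the dark levels did not, and the change was 2.88-fold in VP16 and 6.28-fold in hy5 (interaction -1.11 ± 0.13, limma adjusted p = 3.5e-07). HEMA1 (-0.79 ± 0.16, limma adjusted p = 0.0013), CRD1 (-0.92 ± 0.19, 0.0015) and CHLH (-0.55 ± 0.17, 0.037), enzymes of earlier steps, also rose in both genotypes. CHLH lost its call in most fits without 1 library and in the fit on the compared groups alone (adjusted p = 0.05). Counted in CPM, 2 of the 4 rose more in VP16, CHLH (by 1526.7 against 1204.6 in hy5) and HEMA1 (454 against 453).

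**Figure D3:**
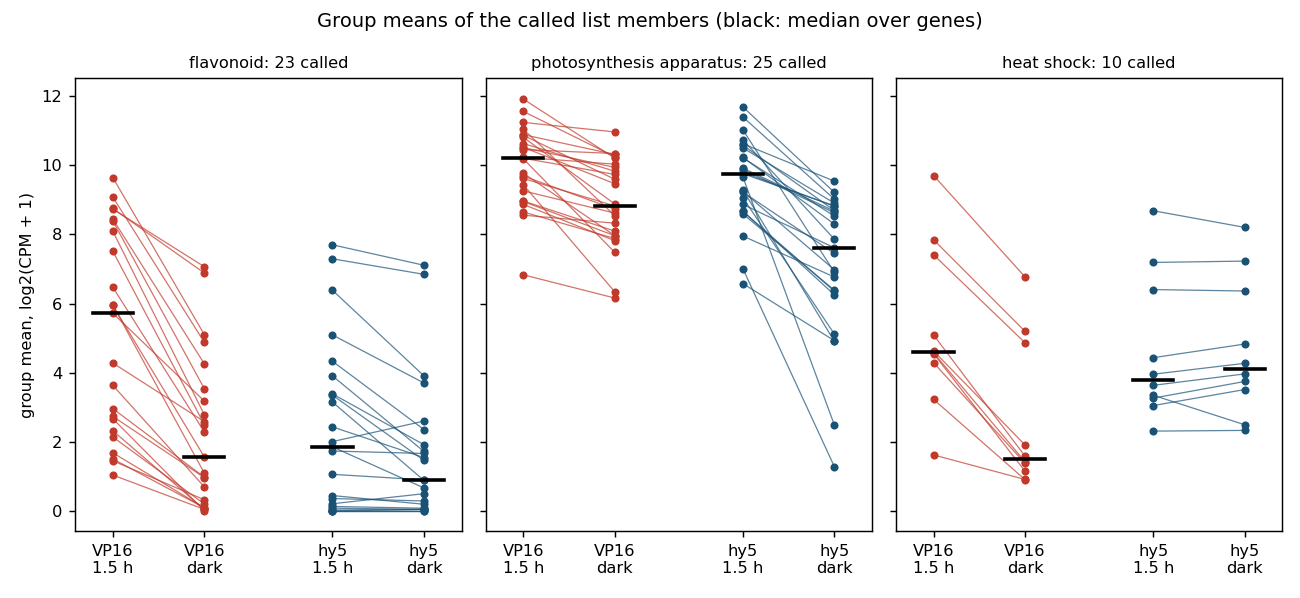
Group means, log2(CPM + 1), of the called members of 3 lists, each point a gene and each line joining its mean at 1.5 h to its mean in the dark, with VP16 left of hy5; black bars are medians over genes. The 23 flavonoid genes separate the genotypes mainly at 1.5 h, and the 25 photosynthesis genes and 10 heat shock genes separate them mainly in the dark.

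Of 9 regulators of chloroplast development, the related GATA factors GNC and CGA1 responded more in VP16, against 5.0% of the table. GNC had an interaction of 0.99 ± 0.16 (limma adjusted p = 6.8e-05). CGA1 had 65.2, 48.2 and 79.3 CPM in VP16 at 1.5 h against 1.3, 0.616 and 0.759 CPM in VP16 in the dark. The values in hy5 were 8.13, 3.5 and 5.34 CPM at 1.5 h and no read in the dark. Its direction differed between the tests: 2.42 ± 0.37 by limma (adjusted p = 3.5e-05), but -3.12 by edgeR (adjusted p = 0.55) and -2.35 by DESeq2 (0.3), neither of which passed.

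In carotenoid synthesis 2 of 11 genes responded more in VP16 and 1 less. The beta-carotene hydroxylases BCH1 (1.14 ± 0.13, limma adjusted p = 2.9e-07) and BCH2 (1.26 ± 0.18, 7.9e-06) responded more. DXS, which feeds plastid isoprenoid synthesis, had -0.52 ± 0.16 (limma adjusted p = 0.043) and did not pass in most fits that leave out 1 library. Of 19 clock genes, GI and ZTL responded more in VP16 and LHY and RVE1 less. Counted in CPM with no log, LHY rose more in VP16 (454 against 397 in hy5) and RVE1 rose less (102 against 179). With 5.0% of the table higher and 3.47% lower, these small carotenoid and clock counts say little of the lists. GI had 155, 193 and 179 CPM in VP16 at 1.5 h against 34.8, 32.5 and 29.7 CPM in VP16 in the dark. In hy5 its level was 122, 128 and 145 CPM at 1.5 h against 65.0, 76.1 and 63.2 CPM in the dark. GI was thus lower in VP16 in the dark and higher at 1.5 h (interaction 1.46 ± 0.17, limma adjusted p = 3.3e-07).

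Auxin genes responded less in VP16 in 12 of 32 members and more in 3, against 3.47% and 5.0% of the table. The median interaction of the list was -0.40. All 12 fell with light in VP16, and 7 of them fell in hy5. IAA3, a repressor of auxin response, had 34.3, 28.7 and 25.7 CPM in VP16 at 1.5 h against 54.6, 58.3 and 47.5 CPM in VP16 in the dark. The hy5 libraries had 98.5, 95.8 and 80.1 CPM at 1.5 h against 88.8, 87.5 and 93.0 CPM in the dark. The VP16 libraries were lower in light, and the hy5 groups overlapped (interaction -0.86 ± 0.15, limma adjusted p = 0.00021). IAA6, a repressor of the same family, had the lowest value of the list (-1.27 ± 0.23, limma adjusted p = 0.00026), and GH3.2, which joins auxin to amino acids, had -1.15 ± 0.22 (0.00052). PIN4, an auxin efflux carrier, responded more. It averaged 109 ± 11.9 CPM in VP16 at 1.5 h and 91.3 ± 1.85 CPM in VP16 in the dark (SD, n = 3 each). The hy5 libraries had 59.8, 49.5 and 42.9 CPM at 1.5 h against 94.8, 90.3 and 88.8 CPM in the dark, so that PIN4 fell in hy5 and was not called in VP16. Its interaction was 1.09 ± 0.16 (limma adjusted p = 2e-05).

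Among 7 genes of shade response and the apical hook, the HD-Zip II factors HAT1 and HAT2 responded less in VP16 and HLS1 more. With 3.47% of the table lower and 5.0% higher, such small counts say little of the list. HAT1 had 17.7, 12.1 and 14.1 CPM in VP16 at 1.5 h against 29.2, 33.4 and 26.3 CPM in VP16 in the dark. For hy5 the values were 46.3, 48.5 and 44.8 CPM at 1.5 h against 40.1, 40.7 and 42.3 CPM in the dark. HAT1 fell in VP16 and was not called in hy5 (-1.16 ± 0.16, limma adjusted p = 4.6e-06), and HAT2 did likewise (-1.09 ± 0.14, 2.6e-06). HLS1, needed for the apical hook of dark-grown seedlings, fell in both genotypes, to 0.262 of the dark level in VP16 and to 0.104 in hy5 (1.24 ± 0.25, limma adjusted p = 0.0011).

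Of 25 cell wall growth genes, 7 responded less in VP16 and 3 more, against 3.47% and 5.0% of the table. XTH30, a xyloglucan-remodelling enzyme, had 50.6, 60.9 and 46.9 CPM in VP16 at 1.5 h against 318, 363 and 301 CPM in VP16 in the dark. In hy5 it had 144, 137 and 111 CPM at 1.5 h against 310, 327 and 331 CPM in the dark. The dark groups overlapped, and XTH30 fell further in VP16 (-1.31 ± 0.16, limma adjusted p = 6.8e-07). XTH8 (-1.10 ± 0.14, limma adjusted p = 1.7e-06) and XTH33 (-1.59 ± 0.29, 0.00033) responded less too, while the expansin EXPA1 responded more (1.42 ± 0.18, 2.1e-06).

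Of 9 dark and sugar starvation genes, DIN2, DIN10 and GDH2 responded less in VP16 and none more. DIN10, of the raffinose synthase family, fell to 0.145 of the dark level in VP16 and to 0.302 in hy5 (-1.09 ± 0.24, limma adjusted p = 0.0025). Of 9 type-A response regulators, which dampen cytokinin signalling, ARR9 responded less (-0.77 ± 0.15, limma adjusted p = 0.00074) and ARR16 more (0.87 ± 0.27, 0.036). Of 11 nitrogen and sulphur assimilation genes 1 passed, APR3 of sulphate reduction (0.78 ± 0.22, limma adjusted p = 0.022). Counted in CPM with no log, APR3 rose less in VP16 (82.7) than in hy5 (148). With 5.0% of the table higher and 3.47% lower, single calls in lists of this size say little of the lists. The calls of ARR16, APR3, GDH2, RVE1 and RHD6 were lost in some fits without 1 library. ARR16 also did not pass with edgeR (0.49, adjusted p = 0.76), DESeq2 (0.45, 0.79) or a pseudocount of 0.25 CPM (0.80, 0.27). RHD6 did not pass with edgeR (adjusted p = 0.081), DESeq2 (0.071) or that pseudocount (0.081).

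**Figure D4:**
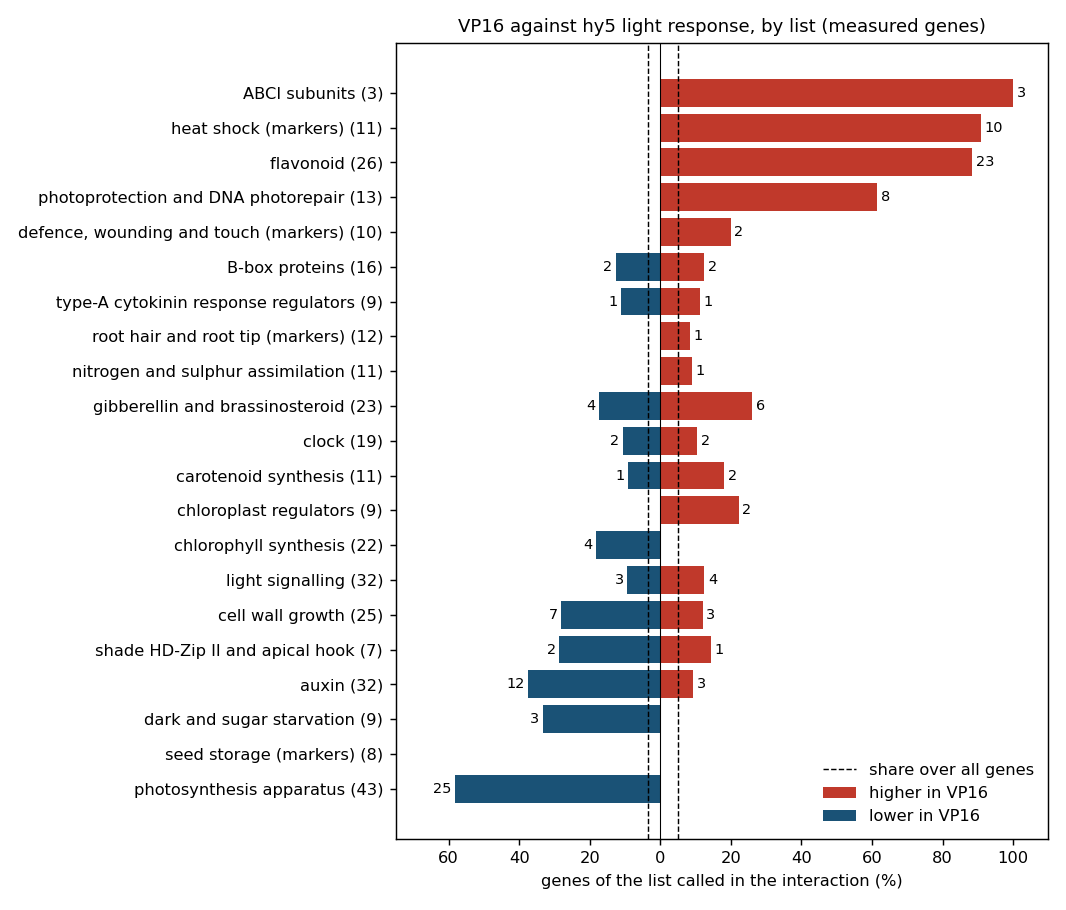
Share of the measured genes of each of 21 lists called in the interaction, higher in VP16 to the right and lower to the left, with the number of genes at each bar and list sizes in brackets. Dashed lines mark the shares over all genes, 5.0% higher and 3.47% lower, and the flavonoid, photoprotection, ABCI and heat shock lists extend far to the right and the photosynthesis list far to the left.

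Genes that mark heat shock and handling were read beside these lists. Of 11 heat shock genes, 10 responded more in VP16 and none less, against 5.0% and 3.47% of the table. Their median interaction was 2.50, and HSP22 did not pass. All 10 rose with light in VP16 and none was called in hy5. All 10 were lower in VP16 than in hy5 in the dark, where 2188 genes (11.1%) of the table were lower. The selection favoured this too, since the dark difference is a term of the interaction. Of all 984 genes called higher, 331 were lower in VP16 in the dark, and of the 11 listed genes 11 were. At 1.5 h 6 of the 10 were higher in VP16, 1 was lower (2324 genes, 11.8% of the table, were lower) and 3 were not called. Their summed level was 937.0, 2053.4 and 1108.4 CPM in VP16 at 1.5 h against 190, 209 and 158 CPM in VP16 in the dark. In hy5 it was 787, 839 and 541 CPM at 1.5 h against 527, 574 and 780 CPM in the dark. Replicate 2 of VP16 at 1.5 h was highest, the VP16 dark libraries were lowest, and without that replicate or any other 9 to 10 of the 11 passed. No member of this list was at 0 throughout any of the 4 groups.

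HSP101, which pulls apart protein aggregates, had 110, 251 and 145 CPM in VP16 at 1.5 h against 30.7, 30.7 and 23.0 CPM in VP16 in the dark. In the hy5 libraries it reached 85.0, 101 and 65.5 CPM at 1.5 h against 73.3, 73.0 and 97.6 CPM in the dark. The hy5 groups overlapped, and every VP16 dark library lay below them (interaction 2.44 ± 0.31, limma adjusted p = 2.2e-06). The small chaperone HSP17.6A had the highest value of the list (3.73 ± 0.45, limma adjusted p = 8.5e-07). HSP17.6A, HSP17.6C and HSP17.6II resemble each other in sequence, so their separate values are uncertain. Of 10 defence, wounding and touch genes JAZ1 and TCH3 responded more in VP16, against 5.0% of the table. The sum of those 10 was 301 to 520 CPM in VP16 at 1.5 h, 116 to 123 CPM in VP16 in the dark, 303 to 329 CPM in hy5 at 1.5 h and 202 to 220 CPM in hy5 in the dark. Between the genotypes in the dark 7 of the 10 were lower in VP16, where 11.1% of the table was lower. The part of handling or stress in the results above was not tested.

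Beyond the lists, the genes with the highest differences that passed in every fit without 1 library included KAT5 (3.91 ± 0.34), a peroxisomal thiolase, and the glycosyltransferases UGT84A1 (3.83 ± 0.30) and AT2G22590 (3.94 ± 0.25). AT5G51440 (3.97 ± 0.42), an HSP20-like chaperone, was among them as well. All 4 rose with light in VP16, with limma adjusted p between 3.2e-12 and 8.2e-08. AT5G57760, an uncharacterized protein, differed in course. It had 18.9, 32.3 and 14.9 CPM in VP16 at 1.5 h against 36.8, 33.2 and 30.6 CPM in VP16 in the dark. Its levels in hy5 were 0.953, 1.36 and 2.22 CPM at 1.5 h against 69.6, 70.3 and 70.5 CPM in the dark, so that it fell in both genotypes and far more in hy5 (4.21 ± 0.33, limma adjusted p = 2.4e-10).

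The uncharacterized AT2G15020 had 25.8, 17.9 and 23.8 CPM in VP16 at 1.5 h and 0.826, 0.565 and 0.791 CPM in hy5 at 1.5 h, with no read in any dark library of either genotype. Its interaction of 3.75 ± 0.23 (limma adjusted p = 1.6e-12) is on a scale with a pseudocount of 1 CPM, and it did not pass with edgeR (adjusted p = 1.0) or DESeq2 (0.057). AT3G52740, also uncharacterized, had 33.4, 26.0 and 29.0 CPM in VP16 at 1.5 h against 0.6, 0.792 and 0.569 CPM in VP16 in the dark, and 0.254, 0.508 and 0.297 CPM in hy5 at 1.5 h with no read in hy5 in the dark. It had 3.77 ± 0.19 by limma (adjusted p = 9.4e-15) and 0.12 by edgeR (adjusted p = 0.76). Of the 984 genes called higher, 89 averaged under 1 CPM in hy5 in both states, and edgeR called 25 of these 89. It called 827 of the other 895, and 654 of the 684 called lower.

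At the low end, outside the LHCB1 genes, stood GolS3, a galactinol synthase of raffinose synthesis. It had 1.4, 2.82 and 1.77 CPM in VP16 at 1.5 h against 1.8, 1.32 and 0.949 CPM in VP16 in the dark. The values in hy5 were 17, 19 and 19.3 CPM at 1.5 h against 2.15, 1.18 and 3.07 CPM in the dark. Only the hy5 light libraries stood apart, and the interaction was -2.34 ± 0.29 (limma adjusted p = 1.2e-06). AT2G34620, of the mitochondrial transcription termination factor family (-2.11 ± 0.28, limma adjusted p = 3e-06), and AT5G48490, of the lipid-transfer protein family (-2.0 ± 0.30, 2.1e-05), rose in both genotypes and were higher in VP16 in the dark. Counted in CPM with no log, AT5G48490 rose more in VP16 (29.3 against 25.4 in hy5) and AT2G34620 rose less (11.9 against 25.1).

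AT5G22920, a RING zinc-finger protein, had 20.8, 31.2 and 29.1 CPM in VP16 at 1.5 h against 378, 360 and 344 CPM in VP16 in the dark. In hy5 its level was 39.2, 41.3 and 42.4 CPM at 1.5 h against 144, 179 and 167 CPM in the dark. It started higher and ended lower in VP16 (-1.74 ± 0.19, limma adjusted p = 1.7e-07). SAUR28 (-1.69 ± 0.22, limma adjusted p = 2.3e-06), of a family of short auxin-induced genes with similar sequences, the uncharacterized AT4G10910 (-1.80 ± 0.24, 2.8e-06) and AT1G61840, with a C1 domain (-1.73 ± 0.30, 0.00014), fell in VP16 and were not called in hy5. AT3G47295 (-1.77 ± 0.24, limma adjusted p = 4.2e-06) and AT5G16030 (-1.66 ± 0.26, 4.3e-05) rose in hy5 and were not called in VP16.

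The light response of VP16 was then tested against that of OX, the line 35S:FLASH-HY5 in the hy5 mutant, and of Col, the Columbia wild type, each with 3 libraries at 1.5 h and 3 in the dark. These comparisons share the VP16 libraries with the one above and hold no hy5 library. Against OX 647 genes (3.29%) passed, 359 higher (1.82%) and 288 lower (1.46%) in VP16. A fit on the libraries of these groups alone called 374. Against Col 947 (4.81%) passed, 505 higher (2.57%) and 442 lower (2.25%). Median light responses of the flavonoid list were 2.1 in VP16, 1.87 in OX, 1.86 in Col and 0.31 in hy5. Those of the photosynthesis list were 0.78 in VP16, 0.93 in OX, 1.53 in Col and 1.59 in hy5. Those of the heat shock list were 2.60 in VP16, 0.31 in OX, 0.28 in Col and -0.31 in hy5.

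Flavonoid genes passed as higher in VP16 than in OX in 9 of 26 members and as lower in 3, and against Col in 9 and 1. Some were named after their values were seen. The anthocyanin regulators TT8 and MYB90 and the enzymes UGT75C1, LDOX, F3'H and DFR were higher in both comparisons. So was TT19, which carries anthocyanins towards the vacuole. Most of these are low genes: with light in VP16 F3'H rose by 13.4 CPM, and the others by 1.48 (UGT75C1) to 5.35 CPM (TT19). At such levels the pseudocount of 1 CPM weighs on the log2 differences. F3H was lower in both, at -2.33 ± 0.27 against OX (limma adjusted p = 3.6e-06) and -2.38 ± 0.27 against Col (1.6e-06). UGT78D2 was higher against OX (1.65 ± 0.22, limma adjusted p = 3.4e-05) and not called against Col (-0.04 ± 0.22, 0.97). Of the photoprotection genes 3 were lower in VP16 than in OX and 4 lower than in Col, and none was higher. ELIP1 was -2.49 ± 0.49 against OX (limma adjusted p = 0.0027) and -1.86 ± 0.49 against Col (0.023).

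No photosynthesis gene of 43 passed against OX, where 3.29% of the table did. Against Col 16 were lower in VP16, where 2.25% of the table was lower. LHCB1.4 had the lowest value of the named genes against Col, -3.80 ± 0.61 (limma adjusted p = 0.00018), while against OX it had 0.12 ± 0.61 (0.96). Light-signalling genes were higher in 1 and lower in 8 of 32 members against Col, where 2.57% of the table was higher and 2.25% lower. The lowest of them was HY5 itself, -3.13 ± 0.18 (limma adjusted p = 9.5e-13), whose reads in VP16 include those of the 35S transgene. RUP1 was lower against Col (-1.38 ± 0.25, limma adjusted p = 0.00069) and not called against OX (0.22 ± 0.25, 0.75).

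Heat shock genes were higher in VP16 in 7 of 11 members against OX and in 9 against Col, where 1.82% and 2.57% of the table were higher. Their summed level was 435 to 798 CPM in OX at 1.5 h and 247 to 261 CPM in OX in the dark, and 597 to 904 and 330 to 428 CPM in Col. Of the named genes, the highest difference against OX was that of AT5G57760 (3.2 ± 0.33, limma adjusted p = 5.3e-07), which was 3.66 ± 0.33 against Col (2.1e-08). BCS1, annotated for cytochrome bc1 synthesis, had the highest against Col (3.69 ± 0.46, limma adjusted p = 6.2e-06) and 3.06 ± 0.46 against OX (0.00013). Its levels were 25.7, 81.6 and 34.7 CPM in VP16 at 1.5 h, with replicate 2 again the highest, and 1.4, 0.352 and 1.9 CPM in VP16 in the dark. NIT3, a nitrilase, was lower against OX (-1.78 ± 0.16, limma adjusted p = 4e-08).

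**Figure D5:**
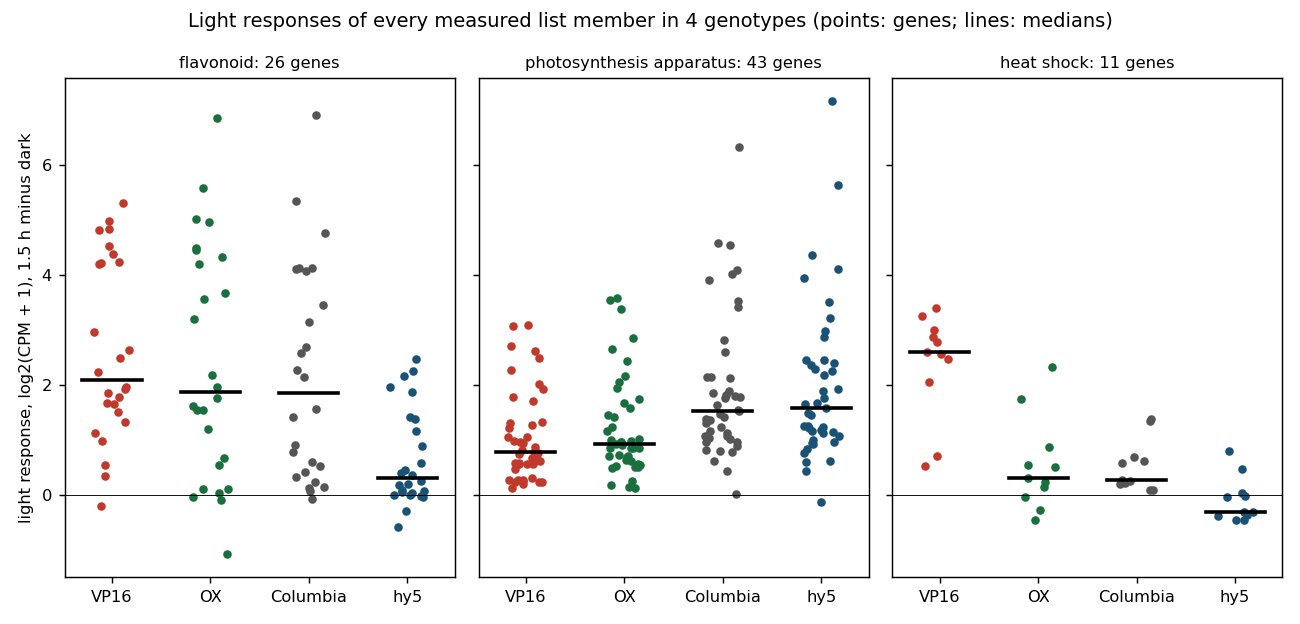
Light response, log2(CPM + 1) at 1.5 h minus dark, of every measured member of 3 lists in VP16, OX, Col and hy5; points are genes and lines are medians. The flavonoid medians of VP16, OX and Col lie at 2.1, 1.87 and 1.86 above 0.31 in hy5, the photosynthesis medians climb to 1.59 in hy5, and the heat shock median is 2.60 in VP16, against 0.31 in OX, 0.28 in Col and -0.31 in hy5.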

How the data were processed

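The authors deposited a table of CPM per gene for 32 stranded mRNA libraries. Its columns sum to 925942 to 1066829 and not to 1 common total, so the deposited values are handled as a normalized signal. A second deposited table gives the authors' log2 fold changes relative to hy5, and was used to compare signs. Per the submitters' processing notes, the genome was TAIR10 and the tools included HTSeq 0.6.0, edgeR 3.16.5, TopHat2 2.0.11 with Bowtie2 2.2.2.0, CASAVA 1.8.2, and SAMtools 0.1.19.0. Every value is a whole multiple of 1 step per column (100% within 0.01 reads), which gave back the reads per gene for depth and for count-based tests. The spread between replicates of the 4 groups was 3.24 to 18.0 times that expected from counting.

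Reported tests used R 4.3.3 and limma 3.58.1, with lmFit, contrasts.fit and trended eBayes on log2(CPM + 1), with a mean for each of 12 groups and all 32 libraries. The plan had assumed plain CPM, and its test was kept. All 19685 genes were tested, Benjamini-Hochberg adjustment was applied per comparison, and an adjusted p below 0.05 was a call. The pseudocount understates the light response of low genes. For a gene that is low in hy5 this can overstate the interaction: CGA1 had 2.42 at 1 CPM and 1.35 at 0.25 CPM. Alternatives were a pseudocount of 0.25 CPM, a mean of at least 5 CPM, median-of-ratios scaling, the compared groups alone, the replicate number as a block, every library omitted once, and 2 count tests on the recovered reads, DESeq2 1.42.0 and quasi-likelihood edgeR 4.0.16. The fit was also run on simulated counts, with changes planted only in genes of at least 5 CPM in hy5 in the dark. That run cannot speak for genes that are low in hy5. Tables were prepared with Python 3.11.15, pandas 2.3.3 and numpy 2.4.6, and figures drawn with matplotlib 3.10.9.

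Gene names and promoters came from TAIR10.1 RefSeq, where 19582 identifiers were found, 103 were not, and 8623 had a symbol. The deposited tables hold no coordinates. The evening element AAAATATCT, the core ACGT by itself and the hybrid box GACGTG were searched as well.

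The 21 gene lists hold 370 genes, of which 351 were measured. The comparison and the lists were chosen with earlier results of these data known. The text names HY5 and HYH, and the 12 highest and 12 lowest called genes that average 5 CPM or more in a group and are called in every fit without 1 library. It further names the 4 called members of each list with the smallest adjusted p, and the 5 highest and 5 lowest called genes against OX and against Col. SRDX and the 4 h libraries entered the fit and are not reported here.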

Additional observations from a re-analysis of the deposited data

Results flagged for a closer look

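The light response differed between VP16 and hy5 by a test of the difference itself in 1668 genes. The same test found 647 genes between VP16 and OX, and 947 between VP16 and Col. All 3 comparisons share the VP16 libraries.

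Among the named genes, GA2ox2 was called as rising with light in VP16 and falling in hy5, and the difference of these responses was 2.5 on the log2 scale (± 0.24 SE, limma adjusted p = 8e-09). It kept its call in each fit without 1 library.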

How the results depend on the processing

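Calls in the interaction (984 higher and 684 lower) were 878 and 685 with edgeR, 911 and 810 with DESeq2, 927 and 674 at a pseudocount of 0.25 CPM, 826 and 658 with a mean of at least 5 CPM, 951 and 731 with median-of-ratios scaling, and 1154 and 782 from the compared groups alone. Leaving out each library in turn gave 1388 to 1574 calls in all. Of the 1668 calls, edgeR shared 90.3% and DESeq2 91.2%, none in the opposite direction, and 116 were made by neither.

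The same range of calls was 7666 to 8302 for the light response of VP16, 5001 to 5675 for that of hy5, 3339 to 3810 between the genotypes in the dark and 3970 to 4403 at 1.5 h. It was 452 to 755 against OX, where 647 were called, the fewest without light replicate 2 of VP16, and 681 to 872 against Col. Against OX, a fit on the compared groups alone called 374 genes, and the cause was not tested.

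CGA1 reversed with edgeR (-3.12) and DESeq2 (-2.35), without passing. Its hy5 dark libraries held no read, and the cause was not tested. With the replicate number as a block, 1055 genes were called higher and 743 lower. The numbers were not taken to pair libraries: over 18 same-numbered pairs the correlation of deviations was -0.163 to 0.285, over 0.1 in 3. Depth limits genes near 3 reads, 0.148 to 0.3 CPM.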
